A study of Mus musculus with 6 samples.

Results

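The 42 genes described here encode the machinery of autophagy, its cargo receptors, the transcription factors Tfeb, Tfe3 and Mitf, and proteins of the lysosome. They were chosen by symbol, with earlier results of these data known. All 42 were found among the 24434 gene symbols of a deposited count table from mouse whole kidney. The table holds 6 libraries of polyadenylated RNA, 3 labelled db/db and 3 labelled db/m, from mice on normal chow. The leptin receptor is disrupted by the db allele, and db/db animals, with no intact copy, become obese and diabetic, while db/m animals keep 1 intact copy and serve as lean controls. Every cell of a db/db animal carries the mutation, so effects of the mutation in kidney cells and effects of obesity and diabetes cannot be told apart. The sources used here give no age, sex or strain, and they do not tie each library to its own animal, so the p-values below reflect only how these libraries vary, which may be technical.

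Autophagy encloses cytoplasm in a double membrane, the autophagosome, which fuses with the lysosome so that its cargo is digested. The Ulk kinases and the Beclin 1 lipid kinase complex start the membrane, ubiquitin-like conjugation attaches the ATG8 proteins to it, and receptors such as p62 bring in cargo. In the kidney the proximal tubule is known for a large lysosomal system, because it takes up filtered protein from the urine and degrades it.

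Libraries held 27023129 to 29868789 counts under db/db and 25937756 to 35931140 under db/m, and the 42 genes took 1.04% to 1.06% of the counts in db/db and 1.02% to 1.10% in db/m. Lepr, the mutated gene, stood at 5.66, 2.54 and 5.15 CPM in db/db and 2.94, 2.48 and 3.61 CPM in db/m, which does not separate the labels, and a count over the whole gene need not show this mutation. Levels are in CPM, counts relative to a library size scaled by trimmed mean of M-values (TMM). A gene is called higher or lower where its adjusted p is below 0.05 (edgeR quasi-likelihood test over 16373 genes, Benjamini-Hochberg), and fold changes are db/db over db/m. As a check of the labelled tissue, the proximal tubule transporter gene Slc34a1 was at 4033 to 8185 CPM in the 6 libraries.

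In db/db, 12 members were called higher and 1 lower. The rises were modest, from 1.2-fold for Gabarapl2 to 2.0-fold for Map1lc3a, and most named lysosomal proteases and membrane proteins were not called. The 12 higher members were Atg13, Wipi1, Wipi2, Atg3, Atg12, Map1lc3a, Gabarap, Gabarapl2, Sqstm1, Scarb2, Ctsh and Psap, and the lower one was Mitf. Higher calls made up 28.6% of the members and 13.1% of all tested genes, and lower calls 2.38% of the members and 10.8% of all tested genes. Calls in either direction covered 31.0% of the members and 24.0% of all tested genes, or 29.4% of the 10648 genes with a mean level at or above that of the lowest member. The median log2 fold change was 0.13 over the members, -0.06 over all tested genes and 0.006 over those 10648 genes. In 19 members every db/db library was above every db/m library and in 4 every db/db library was below, or 45.2% and 9.52%, beside 22.4% and 22.2% of all tested genes. Of the 10648 genes, the db/db libraries were all above in 3009 and all below in 2309. The 22 autophagy genes held 9 of the higher calls, with a median log2 fold change of 0.21. The 17 lysosomal genes held 3, with a median of 0.08. This difference was not tested, and the further lists below went the other way. Of 33 further autophagy genes 15.2% were higher, with a median of 0.02, and of 63 further lysosomal genes 28.6%, with a median of 0.15.

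**Figure D1:**
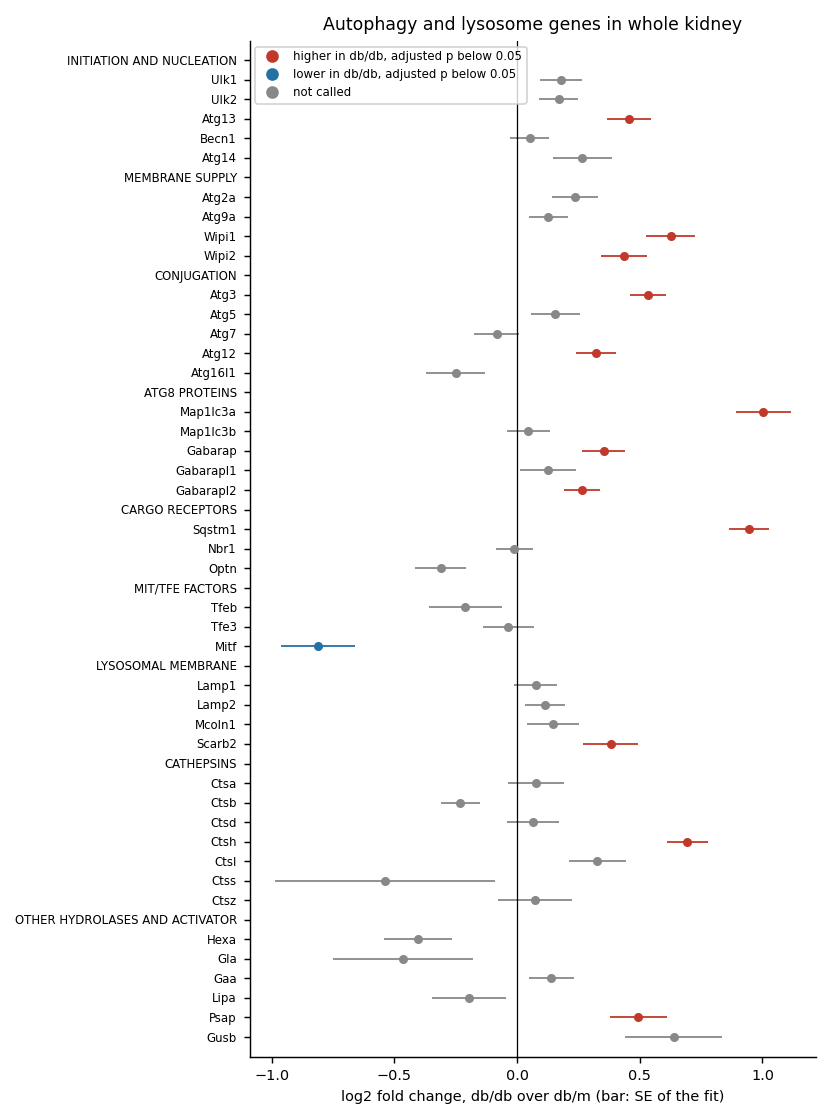
Fold change of each of the 42 members (log2, db/db over db/m, with the SE of the fit) grouped by role, in red where called higher, blue where called lower and grey where not called. The 12 red points run from 0.26 for Gabarapl2 to 1.0 for Map1lc3a, and the single blue point is Mitf at -0.81.

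The balance of directions rested on the scaling, among all tested genes as well as the members. With library totals in place of TMM factors, 1072 of all tested genes were higher and 4883 lower, instead of 2151 and 1774. Their median moved to -0.32 and that of the members to -0.13. Under the same scaling 5 members were higher and 9 lower, instead of 12 and 1. The 5 higher were Wipi1, Atg3, Map1lc3a, Sqstm1 and Ctsh, and Mitf was again lower. The new lower calls there were Atg7, Atg16l1, Nbr1, Optn, Tfeb, Ctsb, Hexa and Lipa. The 4 members Atg3, Map1lc3a, Sqstm1 and Ctsh were called in the same direction under each of the 16 alternatives tried. Leaving out db/db replicate 3 or db/m replicate 2 left 6 higher and 1 lower. Without both libraries numbered 3, which held the most adipocyte RNA (Adipoq at 19.2 and 13.6 CPM, and 0.0792 to 1.34 CPM in the others), 4 were higher and 0 lower by edgeR, with 11 higher and 2 lower at an unadjusted p below 0.05; DESeq2 was run on all 6 libraries, with 14 higher and 2 lower.

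**Figure D2:**
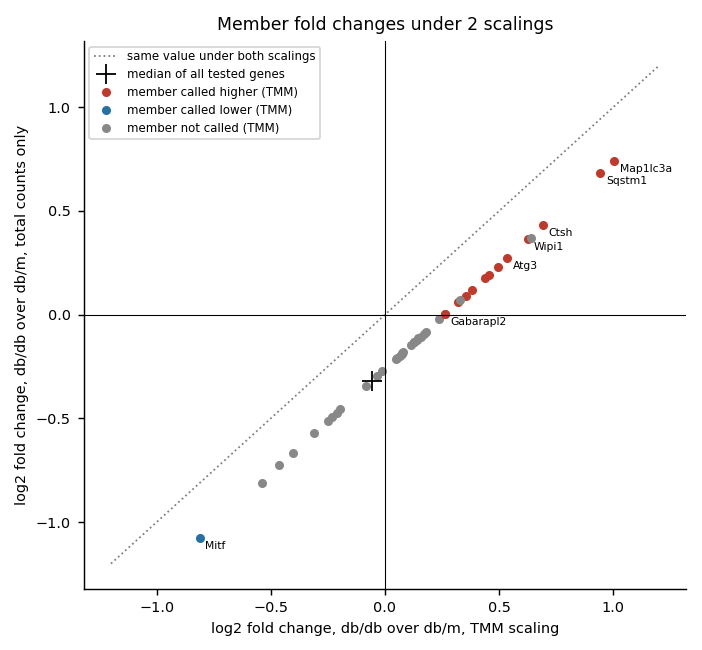
Log2 fold change of each member with TMM scaling (horizontal) and with total counts only (vertical), coloured by its call under TMM, with a cross at the median of all tested genes and a dotted line where both scalings would give the same value. All points lie below the dotted line by about the distance of the cross, Map1lc3a and Sqstm1 stay farthest above 0, and Gabarapl2 falls at 0.00.

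Per kilobase of merged exon in the GENCODE M21 annotation, which need not be the one used for counting, the most abundant member was Psap, at 837 ± 24.9 CPM per kilobase in db/db and 595 ± 75.7 in db/m (SD, n = 3 each). Gabarapl1 followed at 491 ± 56.8 and 450.0 ± 29.6, then Lamp1 at 442 ± 14.0 and 419 ± 22.3. Sqstm1 was at 306 ± 5.79 CPM per kilobase in db/db, close to Ctsd at 290 ± 13.9, whereas in db/m it was at 159 ± 6.89 and Ctsd at 277 ± 30.5. At the low end stood Mitf, with 1.47 ± 0.0989 and 2.57 ± 0.432, and the galactosidase gene Gla, with 1.54 ± 0.560 and 2.12 ± 0.404. Exons of Gabarapl1 (28.3%) and Ctsl (26.8%) overlap a gene on the opposite strand by the share given, and the counting strand is not known. Exons of Atg9a (31.8%) and Ctsd (34.4%) overlap a gene on the same strand, which counting by strand would not separate. The levels of all these genes are uncertain to that extent. Between libraries of 1 group the members varied little, with a median coefficient of variation of 6.51% in db/db and 7.96% in db/m. The exceptions above 20% were Gla (36.4%) and Ctsz in db/db, and Ctss (57.4%) and Gusb in db/m.

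Of the 5 initiation and nucleation genes, Atg13 was called. Atg13, the adaptor that holds the Ulk kinase complex together, stood at 54.2, 64.6 and 59.7 CPM in db/db, against 42.8, 42.5 and 44.8 CPM in db/m. The groups did not overlap, and the log2 fold change was 0.46 (SE 0.09, adjusted p = 0.0116). It was not called with total counts only (0.19, adjusted p = 0.125), or without both libraries numbered 3 (0.48, adjusted p = 0.0765), and over all 16 alternatives its adjusted p ran from 0.000218 to 0.125. The kinase genes Ulk1 and Ulk2 had log2 fold changes of 0.18 (SE 0.09) and 0.17 (SE 0.08) with adjusted p of 0.169 and 0.161. Atg14, which directs the lipid kinase complex to autophagosome sites, had 0.26 (SE 0.12, adjusted p = 0.149). Becn1, which encodes Beclin 1 of that complex, had 0.05 (SE 0.08, adjusted p = 0.664), and 43.9% of its annotated exon length lies opposite Cntd1, a gene at 2.26 and 2.61 CPM.

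Both WIPI genes rose among the 4 genes of membrane supply. WIPI proteins bind the lipid phosphatidylinositol 3-phosphate that the kinase complex makes, and WIPI2 recruits the conjugation machinery. Wipi1 stood at 28.8, 30.4 and 31.8 CPM in db/db, against 20.8, 17.7 and 20.4 CPM in db/m. Wipi2 stood at 115, 137 and 124 CPM in db/db, against 98.3, 89.0 and 89.8 CPM in db/m. Neither gene's groups overlapped, and the log2 changes were 0.63 (SE 0.10, adjusted p = 0.00571) and 0.44 (SE 0.09, adjusted p = 0.0155). Wipi2 missed the threshold without db/db replicate 3 (adjusted p = 0.0532) or db/m replicate 2 (adjusted p = 0.0568), within a range of 0.000373 to 0.134, and Wipi1 missed it without both libraries numbered 3 (adjusted p = 0.0538, range 1.09e-05 to 0.0538). Atg2a, which transfers lipid into the growing membrane, had 0.24 (SE 0.09, adjusted p = 0.106) and Atg9a, a lipid scramblase carried on vesicles, 0.13 (SE 0.08, adjusted p = 0.276).

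Conjugation genes split, with 2 of 5 called higher and the other log2 fold changes on both sides of 0. Atg3, the E2-like enzyme that transfers ATG8 proteins to lipid, stood at 75.9, 69.5 and 72.4 CPM in db/db, against 51.1, 50.6 and 48.7 CPM in db/m. Its groups were well apart, with a log2 change of 0.53 (SE 0.07, adjusted p = 0.00322). Atg12, a ubiquitin-like protein that is joined to Atg5, stood at 54.8, 49.1 and 56.5 CPM in db/db, against 43.0, 42.5 and 42.9 CPM in db/m. Its log2 change of 0.32 (SE 0.08, adjusted p = 0.0301) did not keep its call when db/db replicate 1, db/db replicate 3 or any single db/m library was left out (adjusted p from 0.0566 to 0.106), within a range over all alternatives of 0.00851 to 0.600. Atg16l1, the partner that places the Atg12 and Atg5 conjugate on the membrane, stood at 21.6, 26.9 and 24.8 CPM in db/db, against 30.7, 30.7 and 25.8 CPM in db/m. The highest db/db library lay above the lowest db/m library (-0.25, SE 0.12, adjusted p = 0.163). Atg7, the E1-like enzyme, stood at 24.7, 26.9 and 27.6 CPM in db/db, against 26.5, 29.9 and 27.6 CPM in db/m (-0.08, SE 0.09, adjusted p = 0.538), and Atg5 had 0.16 (SE 0.10, adjusted p = 0.278). With total counts only Atg16l1 was called lower (-0.51, adjusted p = 0.0123, range 0.0123 to 0.384), as was Atg7 (-0.35, adjusted p = 0.0296, range 0.0296 to 0.881).

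Among the 5 ATG8 genes, whose lipid-bound products coat the autophagosome and bind receptors, 3 rose by unequal amounts. Map1lc3a stood at 178, 212 and 169.9 CPM in db/db, against 94.4, 84.9 and 99.6 CPM in db/m. The lowest db/db library was above the highest db/m library by more than either group's SD (186 ± 22.3 and 93.0 ± 7.46 CPM, n = 3 each), with a log2 change of 1.0 (SE 0.11, adjusted p = 0.00153). Map1lc3b, the form most often measured as an autophagy marker, stood at 175, 193 and 193 CPM in db/db, against 196, 177 and 172 CPM in db/m. Its groups overlapped, with a log2 change of 0.05 (SE 0.09, adjusted p = 0.724). The ratio of Map1lc3a to Map1lc3b counts was 1.01, 1.10 and 0.879 in db/db, against 0.483, 0.480 and 0.579 in db/m, a ratio that scaling between libraries does not touch.

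Of the 3 GABARAP subfamily genes, Gabarap and Gabarapl2 were called. Gabarap stood at 351, 413 and 372 CPM in db/db, against 298, 296 and 294 CPM in db/m, and the groups did not overlap (log2 fold change 0.35, SE 0.09, adjusted p = 0.0263). Gabarapl2 stood at 105, 102 and 111 CPM in db/db, against 87.0, 91.1 and 86.4 CPM in db/m (log2 fold change 0.26, SE 0.07, adjusted p = 0.0381). Gabarapl1, the most abundant ATG8 gene here per exon length, overlapped between groups at 863, 1087 and 1017 CPM in db/db and 961, 913 and 843 CPM in db/m (log2 fold change 0.13, SE 0.11, adjusted p = 0.441). Gabarapl2 lost its call when any of the 6 libraries was left out (adjusted p from 0.0628 to 0.131, and 0.00833 to 0.976 over all alternatives). Gabarap lost it when replicate 2 or replicate 3 of either group was left out (adjusted p from 0.0513 to 0.0755, and 0.000759 to 0.400 over all alternatives).

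**Figure D3:**
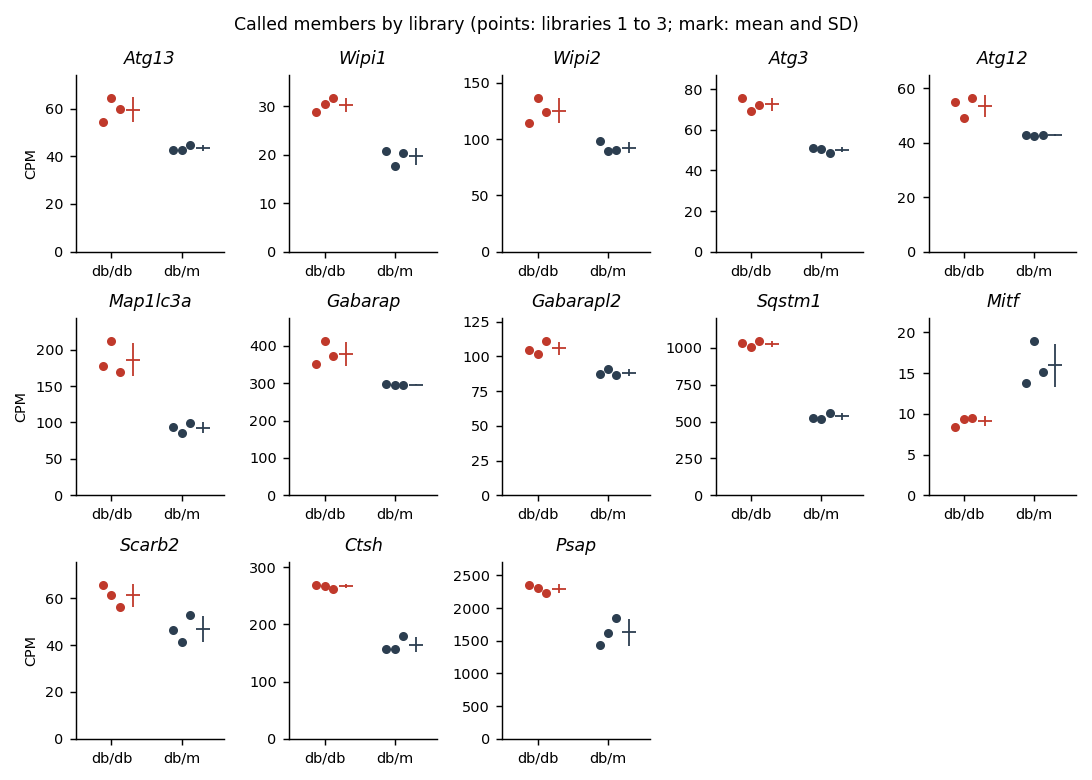
CPM of the 13 called members in each library, db/db in red on the left and db/m in dark blue on the right of each panel, with the mean and SD beside the points and axes that start at 0. In every panel the points of the groups are apart, most widely for Sqstm1 (1007 to 1045 CPM in db/db, 517 to 561 CPM in db/m) and Map1lc3a.

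The cargo receptor Sqstm1 rose by 1.92-fold, and Nbr1 and Optn did not share this. Sqstm1 encodes p62, which binds ubiquitinated cargo and ATG8 proteins and is itself degraded by autophagy, and its transcript is also a known target of the stress factor Nrf2. It stood at 1031, 1007 and 1045 CPM in db/db, against 526, 517 and 561 CPM in db/m. The spread within groups was small beside the gap, with a log2 change of 0.94 (SE 0.08, adjusted p = 0.000627), and 0.68 to 0.99 over the alternatives. Part of Sqstm1 (17.3% of its exon length) lies opposite Mrnip, which was also higher, at 26.2 ± 3.72 CPM in db/db and 11.3 ± 1.34 CPM in db/m (SD, n = 3 each), and its part in the difference was not tested. Nbr1, a receptor with a similar domain plan, stood at 154, 152 and 168 CPM in db/db, against 162, 158 and 159 CPM in db/m. These overlapped (-0.01, SE 0.08, adjusted p = 0.924), the sign changed between alternatives, and with total counts only it was called lower (-0.27, adjusted p = 0.0312, range 0.0312 to 0.978). The ratio of Sqstm1 to Nbr1 counts was 6.51 ± 0.265 in db/db and 3.35 ± 0.158 in db/m, which restates their fold changes without the scaling. Optn, a receptor known from mitochondrial clearance, stood at 19.3, 17.6 and 19.9 CPM in db/db, against 25.7, 21.9 and 23.0 CPM in db/m. Its groups did not overlap, but the log2 change of -0.31 (SE 0.10, adjusted p = 0.0678) did not pass, except with total counts only (-0.57, adjusted p = 0.00662, range 0.00662 to 0.190).

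Of the 3 MiT/TFE factors, which activate lysosomal and autophagy genes when they enter the nucleus, Mitf was lower and the other two were not called. Mitf stood at 8.39, 9.35 and 9.53 CPM in db/db, against 13.8, 18.9 and 15.1 CPM in db/m. The groups did not overlap, and the log2 fold change was -0.81 (SE 0.15, adjusted p = 0.01), which missed the threshold without both libraries numbered 3 (-0.88, adjusted p = 0.0639, range 0.000118 to 0.0639). Tfeb stood at 27.9, 32.3 and 22.3 CPM in db/db, against 32.7, 34.4 and 28.5 CPM in db/m (log2 fold change -0.21, SE 0.15, adjusted p = 0.327), and was called lower with total counts only (-0.47, adjusted p = 0.0375, range 0.0375 to 0.713). Tfe3 had -0.04 (SE 0.10, adjusted p = 0.824). These factors are regulated mainly by phosphorylation and location in the cell, which transcript counts do not measure.

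The factors bind E-box letters around CACGTG, so the 250 bases before each RefSeq start (GRCm38.p6) were searched on both strands for 4 runs of letters and the CLEAR consensus. The shortest run is the core CACGTG, which is nested in TCACGTG, which is nested in TCACGTGA, which is nested in the CLEAR consensus; the remaining run is the variant TCATGTG. Promoters were matched for 36 of the 42 genes, 44 in all. TCACGTG was in 18.2% of the member promoters and 3.13% of all 32851 promoters, TCACGTGA in 11.4% and 0.785%, CACGTG in 22.7% and 6.02%, and TCATGTG in 4.55% and 3.25%. The CLEAR consensus was in 0 member promoters and 0.24% of all. The members were chosen as genes of the kind these factors activate. Their shares beside all promoters therefore do not bear on the difference between db/db and db/m. Of the 9 higher members with a promoter, Atg3 held TCACGTG, and of the 26 members not called, 7 held it. The sites below, 5′ to 3′ on the gene's strand with the matched letters in capitals, are those of the called genes Atg3 and Scarb2 and, for comparison, of Lamp1, Gla, Ctsd and Mcoln1, which were not called and hold more than 1 match; they were chosen after the search. For Ctsd and Mcoln1, 1 of 2 sites is shown. RefSeq starts need not be the starts used in these kidneys: 25 of the 44 windows overlap a GENCODE M21 exon of their gene, and the sites shown for Scarb2, Ctsd and Mcoln1 lie in such an exon. A match is not evidence of binding.
Atg3, chr16:45158723-45158775, plus strand: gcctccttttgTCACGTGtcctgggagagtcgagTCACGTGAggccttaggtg
Scarb2, chr5:92505671-92505700, minus strand: ccgctgcagggCACATGActgaaggcctcc
Lamp1, chr8:13159088-13159160, plus strand: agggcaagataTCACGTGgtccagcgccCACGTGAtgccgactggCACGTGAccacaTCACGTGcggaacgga
Gla, chrX:134601182-134601244, minus strand: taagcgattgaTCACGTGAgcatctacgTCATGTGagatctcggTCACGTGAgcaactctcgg
Ctsd, chr7:142387908-142387937, minus strand: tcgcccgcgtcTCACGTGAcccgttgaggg
Mcoln1, chr8:3500462-3500491, plus strand: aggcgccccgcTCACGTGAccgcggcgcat
Lamp1 had the most matches, 4 of TCACGTG that begin 62, 45, 28 and 16 bases before the start, and its log2 fold change was 0.07. Those of Atg3 begin 95 and 72 bases before its start.

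Among the lysosomal membrane genes 1 of 4 rose. Scarb2, also called LIMP-2, which carries glucocerebrosidase to the lysosome, stood at 65.8, 61.5 and 56.3 CPM in db/db, against 46.7, 41.4 and 52.8 CPM in db/m. The groups were apart by a small margin, with a log2 change of 0.38 (SE 0.11, adjusted p = 0.0457). The call ended when any single library other than db/m replicate 3 was left out (adjusted p from 0.0694 to 0.131, and 0.0170 to 0.447 over all alternatives). The main membrane glycoprotein gene Lamp1 was at 1208, 1198 and 1139 CPM in db/db and 1167, 1054 and 1144 CPM in db/m, so the groups overlapped (log2 fold change 0.07, SE 0.09, adjusted p = 0.56). Its partner Lamp2, needed for fusion with autophagosomes, had 0.11 (SE 0.08, adjusted p = 0.345), and the calcium channel gene Mcoln1 had 0.15 (SE 0.11, adjusted p = 0.347).

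One of 7 cathepsin genes was called. Ctsh, an aminopeptidase-like cysteine protease, stood at 269, 267 and 263 CPM in db/db, against 158, 157 and 179.7 CPM in db/m. The db/db libraries lay close together and above all db/m libraries, with a log2 change of 0.69 (SE 0.08, adjusted p = 0.00207). Ctsl, an endopeptidase, stood at 695, 766 and 765 CPM in db/db, against 679.7, 570.3 and 525 CPM in db/m. It had 0.33 (SE 0.12, adjusted p = 0.0796), and passed without db/m replicate 1 (0.45, adjusted p = 0.0199) and in DESeq2 (adjusted p = 0.0247, range 0.0199 to 0.602). Ctsb stood at 701, 694 and 654 CPM in db/db, against 779.7, 807 and 818 CPM in db/m. All db/db libraries were below, with -0.23 (SE 0.08, adjusted p = 0.0754), and it was called lower in DESeq2 (adjusted p = 0.0244), with upper quartile scaling (adjusted p = 0.0473) and with total counts only (-0.49, adjusted p = 0.00540, the lowest of a range to 0.340). The ratio of Ctsh to Ctsb counts was 0.390 ± 0.00949 in db/db and 0.205 ± 0.0129 in db/m. It restates their opposite fold changes without the scaling and is not a further result. The aspartic protease gene Ctsd had 0.07 (SE 0.11), Ctsa, the protective protein of lysosomal neuraminidase, 0.08 (SE 0.11), and Ctsz, a carboxypeptidase, 0.07 (SE 0.15).

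Ctss, a protease of antigen-presenting cells, moved with leukocyte markers. It stood at 15.2, 14.1 and 18.4 CPM in db/db, against 8.10, 33.3 and 27.7 CPM in db/m, a log2 change of -0.54 (SE 0.45, adjusted p = 0.405). The db/m libraries spanned the db/db libraries, with replicate 1 lowest of all. The summed level of 15 leukocyte markers was 195, 173 and 189 CPM in db/db, against 96.8, 245 and 271 CPM in db/m, and all 15 were lowest in replicate 1 among the db/m libraries. None of the 15 was at 0 in any library; 2 of them, Lyz2 and Cd14, were called lower. Csf1r was 1.68-fold higher with groups that did not overlap, without passing (adjusted p = 0.0874). Without db/m replicate 1, Ctss was called lower (-0.93, adjusted p = 0.0106, range 0.0106 to 0.832). The part of the markers in this was not tested. In RNA of a whole organ, fewer cells of a type and less RNA per cell cannot be told apart.

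**Figure D4:**
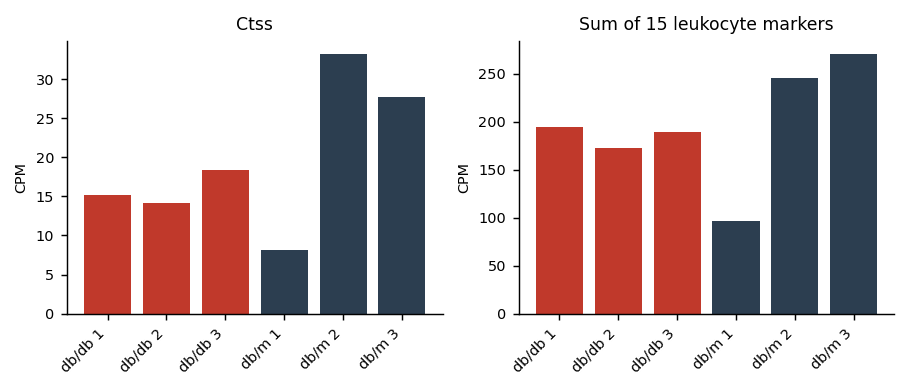
CPM of Ctss (left) and the sum of 15 leukocyte markers (right) in each library, db/db in red and db/m in dark blue. In both panels db/m replicate 1 is lowest (8.10 and 96.8 CPM) and the other db/m libraries are highest.

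Psap was the called member among the other hydrolases and their activators. It encodes prosaposin, the precursor of the saposins that present sphingolipids to lysosomal enzymes, and stood at 2357, 2312 and 2223 CPM in db/db, against 1429.6, 1622 and 1844 CPM in db/m. The groups did not overlap (log2 fold change 0.49, SE 0.12, adjusted p = 0.0226). The call ended when any single db/db library, or db/m replicate 2, was left out (adjusted p from 0.0618 to 0.0756, and 0.000172 to 0.183 over all alternatives). Gusb, which encodes beta-glucuronidase, stood at 72.6, 57.2 and 54.1 CPM in db/db, against 29.1, 40.2 and 48.7 CPM in db/m. Its fold change was larger than that of Psap, at 0.64 (SE 0.20), but missed the threshold (adjusted p = 0.0545), and it passed in 4 of the 16 alternatives: without db/m replicate 3 (0.83, adjusted p = 0.0263), in DESeq2 (adjusted p = 0.00870), with no filter (adjusted p = 0.0492) and in limma-voom (adjusted p = 0.04999), within a range of 0.00870 to 0.207. Hexa, the alpha subunit of hexosaminidase, stood at 46.1, 50.3 and 40.8 CPM in db/db, against 57.6, 52.2 and 71.7 CPM in db/m. Its groups did not overlap, with -0.40 (SE 0.14, adjusted p = 0.0723), and it was lower with total counts only (-0.67, adjusted p = 0.0131, range 0.0131 to 0.326). The acid glucosidase gene Gaa had 0.14 (SE 0.09) and Gla -0.46 (SE 0.29), with adjusted p of 0.299 and 0.269. Lipa, the acid lipase gene, stood at 205, 218 and 183 CPM in db/db, against 258, 256 and 180.4 CPM in db/m. Its groups overlapped through db/m replicate 3 (-0.20, SE 0.15, adjusted p = 0.37), and it was called lower with total counts only (-0.45, adjusted p = 0.0402, range 0.0402 to 0.692).

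Of 63 lysosomal genes outside the 42, 18 were higher (28.6%) and 5 lower (7.94%), beside 13.1% and 10.8% of all tested genes. The median log2 change was 0.15 and the median absolute one 0.27, beside 0.13 and 0.24 over the members; with total counts only, 11 were higher and 19 lower. Glb1, which encodes lysosomal beta-galactosidase, stood at 189, 197 and 183 CPM in db/db, against 38.1, 35.3 and 44.9 CPM in db/m. This 4.82-fold difference exceeded that of any member (log2 fold change 2.27, SE 0.11, adjusted p = 5.77e-05). Galns, a sulfatase of keratan and chondroitin sulfate, was at 189.5 ± 6.51 CPM in db/db and 57.6 ± 12.2 CPM in db/m (1.72, SE 0.15), and Ppt2, a thioesterase, at 185 ± 15.6 and 76.0 ± 0.989 CPM (1.28, SE 0.09). Aga, which cleaves sugar from asparagine, had 0.98 (SE 0.12), the membrane protein gene Tmem192 0.77 (SE 0.10) and the sulfatase gene Arsb 0.63 (SE 0.08). These 6 were called under all 16 alternatives, as were M6pr, Dpp7, Clcn7 and Prcp.

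The 5 lower lysosomal genes were Cln3, Lgmn, Arsa, Ctns and Pla2g15. Cln3, a lysosomal membrane protein lost in juvenile neuronal ceroid lipofuscinosis, was at 16.0 ± 0.799 CPM in db/db and 28.2 ± 1.85 CPM in db/m (log2 fold change -0.82, SE 0.10, adjusted p = 0.00188), and it was called under all 16 alternatives. Lgmn, the asparagine endopeptidase that processes cathepsins, had -0.47 (SE 0.10, adjusted p = 0.0151), and missed the threshold without db/db replicate 3 or db/m replicate 2. Ctns, the cystine exporter, had -0.61 (SE 0.14, adjusted p = 0.0228), Arsa, a sulfatide sulfatase, -0.72 (SE 0.16, adjusted p = 0.0198), and the phospholipase gene Pla2g15 -0.79 (SE 0.22, adjusted p = 0.0417). Each of these 3 missed the threshold when either db/db replicate 2 or db/db replicate 3 was left out.

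**Figure D5:**
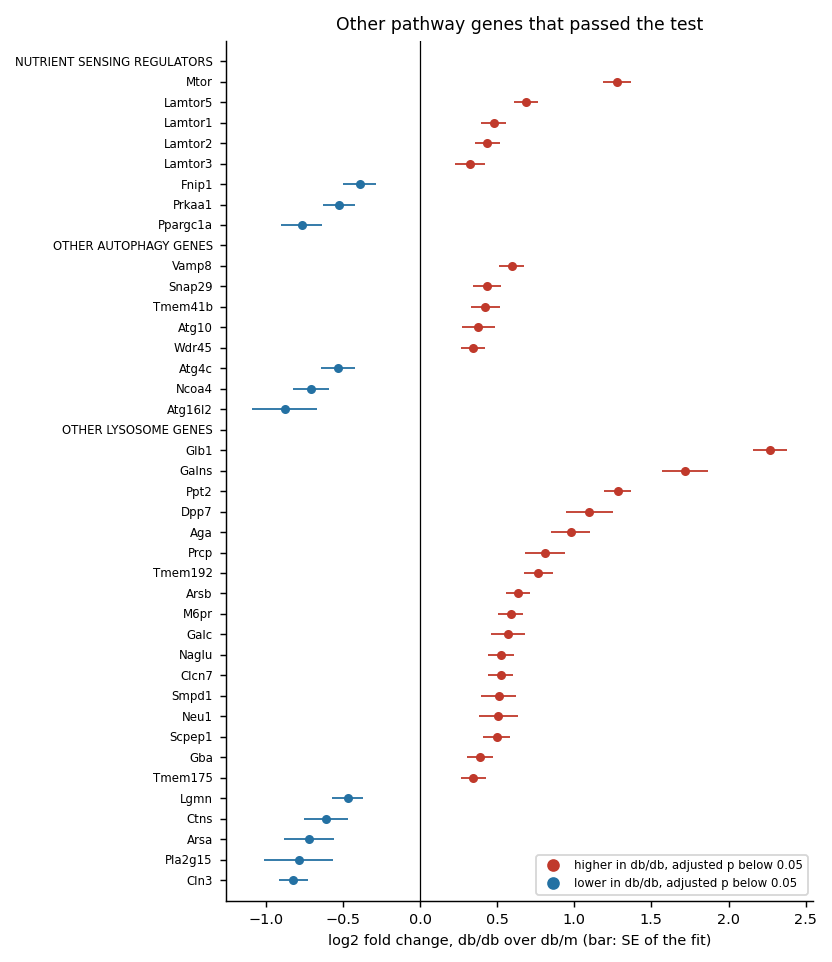
Log2 fold change (db/db over db/m, with the SE of the fit) of called genes in 3 lists of further autophagy, lysosome and nutrient sensing genes, red where higher and blue where lower. Glb1 at 2.27 lies farthest to the right and Atg16l2 at -0.88 farthest to the left.

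Of 33 further autophagy genes 5 were higher (15.2%) and 3 lower (9.09%), shares near the 13.1% and 10.8% of all tested genes, with a median of 0.02, and with total counts only 1 was higher and 13 lower. Vamp8 and Snap29 encode SNARE proteins that fuse autophagosomes with lysosomes. Vamp8 was at 321, 361 and 335 CPM in db/db, against 228, 229.6 and 216 CPM in db/m, with 0.59 (SE 0.08, adjusted p = 0.00316), and Snap29 had 0.43 (SE 0.09, adjusted p = 0.0147). Tmem41b, a scramblase, had 0.42 (SE 0.09), the WIPI relative Wdr45 0.34 (SE 0.08), and Atg10, the E2-like enzyme for Atg12, 0.38 (SE 0.11). Ncoa4, the receptor that delivers ferritin to autophagosomes, was at 96.7, 93.2 and 113 CPM in db/db, against 186, 158 and 151 CPM in db/m, with -0.71 (SE 0.12, adjusted p = 0.00605). Atg4c, a protease of ATG8 proteins, had -0.53 (SE 0.11), and Atg16l2, a relative of Atg16l1, -0.88 (SE 0.21). Only Vamp8 and Ncoa4 of these 8 were called under all 16 alternatives; each of the other six missed the threshold in at least 1 repeat that left out db/db replicate 3 or db/m replicate 2.

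Of 21 nutrient sensing regulators, which tie autophagy and the MiT/TFE factors to amino acids and energy, 5 were higher (23.8%) and 3 lower (14.3%). The shares of all tested genes were 13.1% higher and 10.8% lower. Mtor, the kinase that holds autophagy and Tfeb in check when nutrients are plentiful, stood at 340.1, 319.9 and 334 CPM in db/db, against 124, 141 and 146 CPM in db/m. The groups were far apart (log2 fold change 1.28, SE 0.09, adjusted p = 0.000261). Of the 5 Lamtor genes, whose products anchor mTORC1 to the lysosome, 4 were higher, with Lamtor5 at 0.69 (SE 0.08), Lamtor1 at 0.48 (SE 0.08), Lamtor2 at 0.44 (SE 0.08) and Lamtor3 at 0.32 (SE 0.10). Lamtor3 lost its call in 5 of the 6 repeats that each left out a library. Ppargc1a, a coactivator of mitochondrial genes, had -0.77 (SE 0.13, adjusted p = 0.00766), Prkaa1, a catalytic subunit of AMPK, -0.52 (SE 0.10, adjusted p = 0.0124), and Fnip1, a partner of folliculin, -0.39 (SE 0.11, adjusted p = 0.0383), a call that ended when any single library was left out. With total counts only, 2 regulators were higher and 7 lower.

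Some markers of nephron segments were also called between the groups. The sum of 10 proximal tubule markers was 18557 to 21163 CPM in db/db and 12473 to 15748 CPM in db/m, with 2 markers higher and 1 lower. In the S3 list, for the last stretch of the proximal tubule, all 5 markers were higher, with a sum of 2994 to 3907 CPM in db/db and 337 to 553 CPM in db/m. The rises were very unequal, from 1.85-fold for Slc5a8 and 6.95-fold for Atp11a to 56.4-fold for Acsm3. Whether this sum follows the amount of the segment was not tested. Of 4 distal tubule markers, 3 were called lower, with a sum of 845 to 924 CPM in db/db and 1218 to 1904 CPM in db/m, and 3 of 6 collecting duct markers were lower. None of the 4 thick ascending limb markers was called by edgeR, with 2 lower at an unadjusted p below 0.05, and their sum was 1868 to 3797 CPM in db/db and 2134 to 3194 CPM in db/m. Of 4 podocyte markers 1 was lower, with a sum of 191 to 254 CPM in db/db and 261 to 313 CPM in db/m. No defining marker of these segments was at 0. Their part in the changes of the autophagy and lysosome genes was not tested.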

How the data were processed

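Polyadenylated whole kidney RNA from 6 libraries was sequenced in strand-specific libraries, per the labels' protocols. The authors deposited whole-number read counts per gene symbol, not normalised; fastp, FastQC, HISAT2, SAMtools, StringTie and DESeq2 are named without roles or versions, per the submitters' processing notes. The sources used here name no build, annotation or counting strand. Columns named db with a number were taken as the db/db titles with that number.

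The edgeR filter filterByExpr kept 16373 symbols, all 42 members among them. Scaling used TMM, with factors of 0.901 to 0.923 in db/db and 1.062 to 1.122 in db/m. The groups were compared with the edgeR 4.0.16 quasi-likelihood test (R 4.3.3, no covariates). The SE is the log2 fold change divided by the square root of F. DESeq2 1.42.0, limma 3.58.1 (voom), other scalings and filters, and each library left out in turn were alternatives. Between pairs of libraries in a group, chi-square over its degrees of freedom was 15.9 to 59.5, more than re-sequencing of the same library would give. This cannot tell libraries made separately from the same RNA or animal from those of different animals. The fit was tested on simulated data with fewer changed genes than were called here. It recovered 8% of 1.5-fold, 58% of 2-fold and 94% of 4-fold changes, and 3 of its 132 calls were false. These shares need not hold for the members, whose median SE was 0.10, beside 0.17 over all tested genes. Gabarapl2 was called at 1.20-fold and Atg12 at 1.25-fold, while Gusb at 1.56-fold was not called. How many changes of such size were missed among the members was not tested. Members and lists were chosen with earlier results of these data known. Values in every library are given for called members and for those whose call changes; the rest are summarised, with at most 6 named per direction from each further list, and M6pr, Dpp7, Clcn7 and Prcp named after their values were seen. A called lysosomal gene is counted but not reported here by name or drawn.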

Additional observations from a re-analysis of the deposited data

How the results depend on the processing

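Of 672 repeats of a member under an alternative (16 each), 577 kept their direction and side of the threshold, 52 lost a call, 17 gained one and 26 changed sign, all of the last in members that were not called. Scaling by total counts only left 1072 genes higher and 4883 lower, against 2151 and 1774 with TMM. There, 5 members were higher and 9 lower, as were 1 and 13 further autophagy genes, 11 and 19 further lysosomal genes, and 2 and 7 nutrient sensing regulators, and the members' median log2 fold change was -0.13. That scaling turned the sign of Ulk1 (-0.082), Ulk2 (-0.092), Becn1 (-0.21), Atg2a (-0.023), Atg9a (-0.13), Atg5 (-0.11), Map1lc3b (-0.21), Gabarapl1 (-0.13), Lamp1 (-0.19), Lamp2 (-0.15), Mcoln1 (-0.11), Ctsa (-0.18), Ctsd (-0.20), Ctsz (-0.19) and Gaa (-0.12). Nbr1 turned to 0.0044 with DESeq2 size factors and 0.0046 in the DESeq2 Wald test. Members called lower numbered 2 with upper quartile scaling and 2 in the DESeq2 Wald test.

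Without both libraries numbered 3, which leaves 2 libraries per group, 1052 genes were higher and 660 lower; 4 members were higher and 0 lower by edgeR, and 2 lower at an unadjusted p below 0.05. The further lists there had 1 autophagy gene higher and 1 lower, 2 lysosomal genes lower, and 3 regulators higher and 1 lower; Map1lc3b was at -0.011 and Tfe3 at 0.038. Leaving out 1 library at a time gave 1374 to 2011 genes higher and 851 to 1523 lower, 6 to 10 members higher and 1 to 2 lower, 1 to 4 further autophagy genes higher and 1 to 6 further lysosomal genes lower, with a members' median of 0.12 to 0.19. Over those repeats Nbr1 ran from -0.055 to 0.022, Tfe3 from -0.0897 to 0.048, Ctsd from -0.0090 to 0.13 and Ctsz from -0.10 to 0.17.

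The replicate numbers share only a number: the deviations of same-numbered libraries correlated at -0.15, 0.057 and 0.14, and not every library correlated best with its own number. A replicate block in the fit gave 1313 genes higher and 973 lower, 6 members higher and 2 further autophagy genes higher. Scaling by total counts drops the TMM factors, which were lower in every db/db library (0.901 to 0.923) than in any db/m library (1.062 to 1.122). With it the median of all tested genes moved from -0.06 to -0.32. Why the factors differ between the groups was not tested. The cause of the other changes was not tested, beyond the fewer libraries where some were left out. A member not called is not shown to be equal between the groups.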
